A study of Mus musculus with 17 samples.

Results

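The 10 genes described here encode enzymes that modify and cross-link collagen: the lysyl oxidases Lox, Loxl1, Loxl2, Loxl3 and Loxl4, the lysyl hydroxylases Plod1, Plod2 and Plod3, and the prolyl 4-hydroxylase subunits P4ha1 and P4ha2. They were taken by name, as 10 of the 30406 genes listed for every library, and their levels were read in 17 single-cell libraries of mouse skin and kidney. All mice were 8 weeks old and carried PDGFRβ-Cre with the Z/EG reporter. Sorting for GFP is meant to take cells with present or past Cre activity, which the paper describes in pericytes and leukocytes. The libraries also held keratinocytes, endothelial cells and kidney tubule cells, and whether these had Cre activity was not tested. SARATg mice also carried a human ZFYVE9 transgene, which encodes SARA (Smad anchor for receptor activation) and is switched on by the same Cre. Skin libraries came from SARAWT mice given subcutaneous PBS (3) or bleomycin at 20 mg/kg (3) and from SARATg mice given PBS (1) or bleomycin (1), with 3 injections a week for 2 weeks per the labels. Kidney libraries came from wild-type mice given vehicle (3) or intraperitoneal aristolochic acid at 5 mg/kg (3) and from SARATg mice given vehicle (2) or aristolochic acid (1), with 3 injections a week for 3 weeks. The labels do not say whether a library is 1 animal or a pool, so p-values measure the spread between these libraries, which may be technical.

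Fibrillar collagen is modified in several steps. In the endoplasmic reticulum, prolyl 4-hydroxylases, whose α subunits are P4ha1 and P4ha2, hydroxylate proline and thereby stabilize the triple helix, and lysyl hydroxylases hydroxylate lysine. Plod2 acts on the telopeptide lysines that set the type of cross-link, Plod1 on lysines of the helix, and Plod3 also adds sugars to hydroxylysine. After secretion, lysyl oxidases, which are copper-dependent amine oxidases, convert lysine and hydroxylysine to aldehydes that form the cross-links of collagen and elastin. Fibrotic skin and kidney are known for dense, cross-linked collagen.

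The lysyl oxidase-like genes share the short coding stretch below, with the histidine codons of the copper-binding site of the catalytic domain. It is shown because it marks the 4 genes as 1 enzyme family, while their levels across cells differ. Bases are given 5′ to 3′ on the coding strand, from GENCODE vM21 transcripts on GRCm38, with the histidine codons in capitals.
Loxl1: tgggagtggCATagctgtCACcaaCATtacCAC
Loxl2: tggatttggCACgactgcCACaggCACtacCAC
Loxl3: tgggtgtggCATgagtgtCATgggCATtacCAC
Loxl4: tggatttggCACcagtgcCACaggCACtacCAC
In each gene the 33 bases hold 4 histidine codons and run over an exon junction, so the genomic span includes an intron. The span is chr9:58293720-58294381 on the minus strand (exons 3 and 4), chr14:69682316-69689037 on the plus strand (exons 10 and 11), chr6:83049995-83050125 on the plus strand (exons 10 and 11) and chr19:42598807-42599899 on the minus strand (exons 11 and 12). Loxl2 and Loxl4 share 31 of the 33 bases, Loxl2 and Loxl3 share 25, and Loxl1 and Loxl4 share 21.

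Plod2 and the prolyl hydroxylases are known as hypoxia-response genes, and promoters were therefore searched for the core of the hypoxia response element, written ACGTG or GCGTG, on both strands. Of the 32851 promoters of this length in the RefSeq table (GRCm38.p6, 250 bases before to 50 after the start), 43.8% hold such a match, so a match on its own is common. Promoters were given for 5 of the 10 genes (Loxl4, Plod1, Plod3, P4ha1 and P4ha2), and each of the 5 held at least 1 match. Those of P4ha1 (chr10:59323046-59323345, plus strand) and P4ha2 (chr11:54100674-54100973, plus strand) are shown with the matches in capitals, because these α subunits have the same function but differ in how their levels spread over cell classes.
P4ha1: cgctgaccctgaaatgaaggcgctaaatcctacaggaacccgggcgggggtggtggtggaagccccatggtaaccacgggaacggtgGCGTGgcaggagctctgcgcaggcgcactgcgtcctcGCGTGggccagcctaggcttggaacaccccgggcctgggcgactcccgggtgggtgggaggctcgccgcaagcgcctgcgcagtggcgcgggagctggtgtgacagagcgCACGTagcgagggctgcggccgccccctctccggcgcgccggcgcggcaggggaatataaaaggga
P4ha2: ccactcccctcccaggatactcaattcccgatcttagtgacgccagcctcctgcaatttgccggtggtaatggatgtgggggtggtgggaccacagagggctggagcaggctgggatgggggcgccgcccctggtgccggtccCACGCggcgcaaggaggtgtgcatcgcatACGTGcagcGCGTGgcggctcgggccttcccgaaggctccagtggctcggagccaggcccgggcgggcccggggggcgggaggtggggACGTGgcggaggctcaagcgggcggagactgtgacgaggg
P4ha1 held 3 matches and P4ha2 held 4. A match is a description of these letters and not a binding site.

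In GENCODE vM21 on GRCm38 the genes lie on chromosome 18 from 52516067 to 52529867 (Lox), 9 from 58287738 to 58313186 (Loxl1), 14 from 69609068 to 69695834 (Loxl2), 6 from 83034173 to 83052562 (Loxl3), 19 from 42593982 to 42612813 (Loxl4), 4 from 147909753 to 147936767 (Plod1), 9 from 92542223 to 92608428 (Plod2), 5 from 136987019 to 136996648 (Plod3), 10 from 59323296 to 59373304 (P4ha1) and 11 from 54100095 to 54131665 (P4ha2).

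Totals were 3355217 to 69765525 UMIs per library in skin and 28660151 to 137093834 in kidney. Cells were assigned to classes by fixed marker genes, and 24523 of 30085 kept skin cells and 54122 of 61744 kept kidney cells received a class. Levels are CPM, the UMIs of a gene scaled to all UMIs of a class in a library, and since UMIs were counted from 3′ ends, CPM is used here to compare samples and classes for 1 gene and not genes with each other. The stromal gate, which covers fibroblast-like cells, held 2505 skin cells with a median of 9 of its 12 markers detected, but only 60 kidney cells, and the mural gate held 142 skin and 52 kidney cells. The kidney libraries consisted mainly of proximal tubule cells (19747), T and innate lymphoid cells (17465) and mononuclear phagocytes (9553).

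Several libraries stood apart. Mouse Zfyve9 was 621 CPM in the library labelled SARAWT PBS 3, against 7.75 to 26.01 CPM in the other 5 SARAWT skin libraries and 224 and 314 CPM in the SARATg ones, and the library labelled SARAWT PBS 1 held human ZFYVE9 at 845 CPM, against 89.3 to 190.2 CPM in the other 3 libraries counted with that gene. These 4 (SARAWT PBS 1 and 2 and bleomycin 1 and 2) were counted with Cell Ranger 4.0.0 and the other 4 skin libraries with 3.1.0, per the file headers. In kidney, Zfyve9 was 164 CPM in the library labelled wild-type aristolochic acid 1 and 20.6 CPM in that labelled SARATg aristolochic acid, against 10.5 to 32.1 CPM in the other wild-type libraries and 96.4 and 100.4 CPM in SARATg vehicle. These values go against the genotype labels, so no direction between genotypes is read. The share of barcodes also listed by another skin library was 55.5% in SARAWT PBS 2, 22.1% in bleomycin 2, 17.6% in bleomycin 1 and 7.38% in PBS 1, and no more than 0.824% in the other 4 skin libraries. Kidney vehicle 3 held 3239 T and innate lymphoid cells, against 382 and 454 in vehicle 1 and 2 and 2002 to 3840 in wild-type aristolochic acid. Results that rest on these libraries are given with and without them where the call changes.

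Levels by cell class were compared first, to find which sorted cells carried these enzymes. In skin, the lysyl oxidases had their highest mean over all libraries in stromal-gated cells, but for Loxl3 the order differed between libraries. Lox, the founding lysyl oxidase, was 366 ± 162 CPM there (SD, n = 8 libraries; lowest 192, median 297, highest 684) and 66.7 ± 70.3 CPM (n = 7) in myogenic cells, the next class. It was higher in stromal cells in 7 of 7 libraries, by 2.97 ± 1.22 (SD) on the log2(CPM + 1) scale (adjusted p = 0.0446, two-sided exact sign-flip permutation test over libraries, Benjamini-Hochberg over 20 tests in both tissues). Loxl1, known for its part in elastic fibres, was 268 ± 69.1 CPM in stromal (n = 8) and 90.2 ± 41.0 CPM in myogenic cells, and Loxl4 was 17.1 ± 9.18 CPM in stromal and 4.74 ± 4.06 CPM in Schwann cells. Both were higher in stromal cells in 7 of 7 libraries (adjusted p = 0.0446 each, exact test). With 7 libraries the smallest p this test can give is 0.0156. A stricter gate, which left 5 libraries for Lox and Loxl1 and 7 for Loxl4, ended the 3 calls (adjusted p = 0.156, 0.156 and 0.125), as did the stricter cell filter (adjusted p = 0.0521 each). With 5 libraries the smallest p of the test is 0.0625, so Lox and Loxl1 could not be called with the stricter gate. Both were still higher in stromal cells in 5 of 5 libraries. The 2 classes of each test were the highest 2 of the 10 with enough libraries by mean log2(CPM + 1) in these same data, so the order itself is a description.

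Loxl2 and Loxl3 had marked levels in other classes too. Loxl2, which also acts on basement membrane collagen, was 316 ± 120.4 CPM in stromal cells (n = 8), 204 ± 160.4 CPM in Schwann cells (n = 7) and 153 ± 175 CPM in mural cells (n = 6). Stromal cells had more Loxl2 than Schwann cells in 6 of 7 libraries (adjusted p = 0.104, exact test). Loxl3 was 62.3 ± 61.8 CPM in stromal and 24.9 ± 5.82 CPM in Schwann cells, and higher in stromal cells in 4 of 7 libraries (adjusted p = 0.673, exact test). These 4 were the bleomycin libraries of both genotypes. With cells left out whose barcode another skin library also lists, the order turned in SARAWT bleomycin 2, which then had 13.7 CPM in stromal and 25.6 CPM in Schwann cells, so the split by treatment did not hold. In the 3 PBS libraries with Schwann cells Loxl3 was higher in Schwann cells, at 25.5 and 16.9 CPM in SARAWT PBS 1 and 3 and 28.7 CPM in SARATg PBS, against 13.2, 8.41 and 5.56 CPM in their stromal cells. Mural cells had 31.3 ± 35.4 CPM (n = 6), with a lower mean on the log2 scale than Schwann cells. The stromal SD of Loxl3 was nearly as wide as its mean.

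The lysyl hydroxylases were spread over more classes. Plod1 was 114 ± 42.3 CPM in Schwann cells (n = 7), 104 ± 39.1 CPM in endothelial cells (n = 7) and 99.8 ± 38.6 CPM in stromal cells (n = 8), and the first 2 classes did not differ beyond their spread (adjusted p = 0.938, exact test over 6 libraries). Plod2 was 100 ± 26.2 CPM in myogenic, 88.6 ± 21.7 CPM in Schwann and 55.6 ± 35.2 CPM in stromal cells, with an adjusted p of 0.759 between the first 2 in the exact test. Plod3 was 102 ± 21.9 CPM in Schwann and 77.1 ± 19.3 CPM in stromal cells (higher in Schwann cells in 6 of 7 libraries, adjusted p = 0.0781, exact test). Plod2 also reached 32.9 ± 19.3 CPM in T and innate lymphoid cells (n = 8).

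The prolyl hydroxylases differed in how they spread over classes. P4ha1 was 139.5 ± 31.1 CPM in stromal cells (n = 8), 128 ± 42.5 CPM in Schwann cells (n = 7), 96.7 CPM in mast cells, 68.6 CPM in mononuclear phagocytes and 49.0 CPM in T and innate lymphoid cells. P4ha2 was 109 ± 79.1 CPM in stromal, 75.9 ± 48.9 CPM in Schwann and 75.2 ± 25.9 CPM in mast cells, but 0.826 CPM in mononuclear phagocytes and 1.74 CPM in T and innate lymphoid cells. For neither gene did the highest class differ from the next (Schwann cells for P4ha1, mast cells for P4ha2) beyond the spread (adjusted p = 0.369 and 0.599, exact test).

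**Figure D1:**
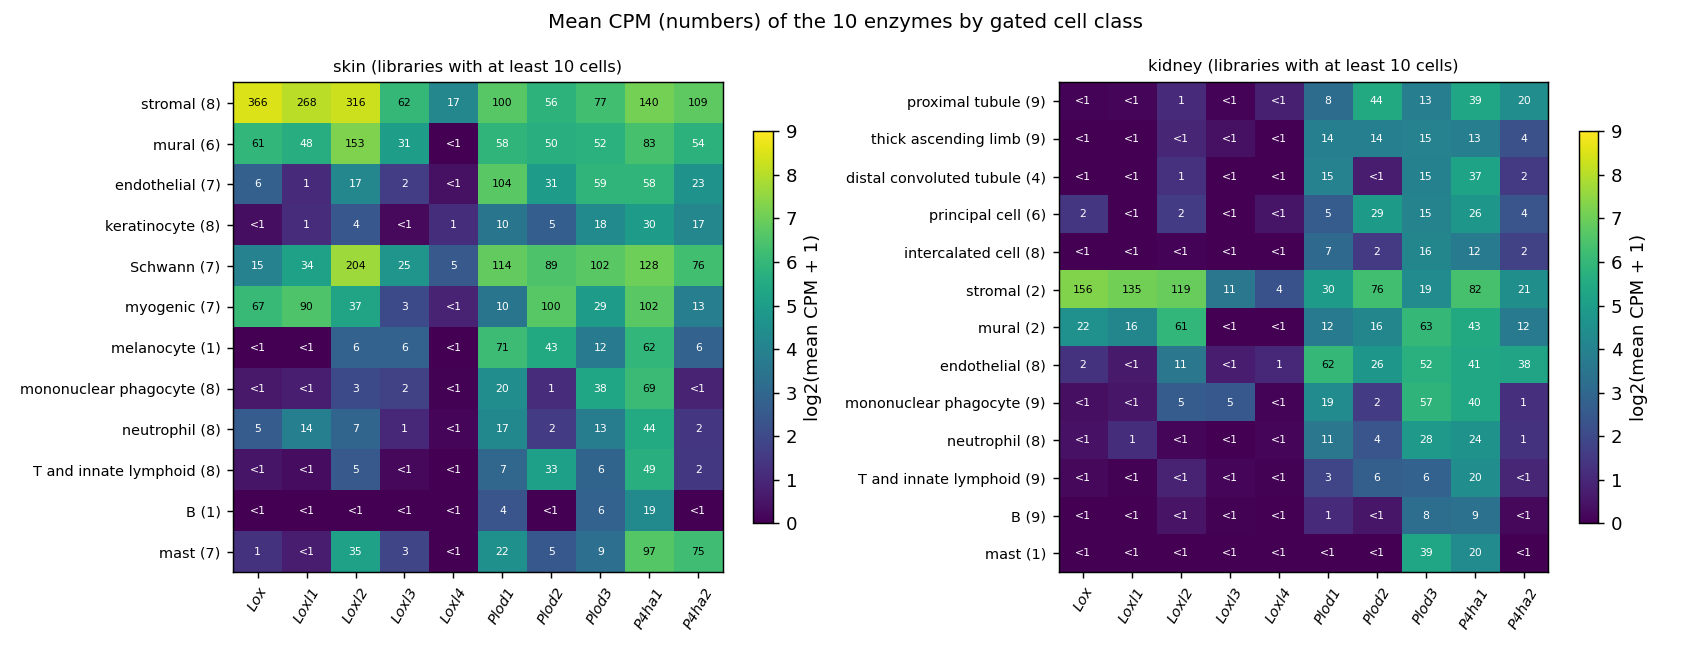
Mean CPM of the 10 enzymes (columns) in each gated cell class (rows, with the number of libraries that held at least 10 cells) in skin (left) and kidney (right). Numbers are mean CPM and colour is log2(mean CPM + 1), with Lox, Loxl1 and Loxl2 brightest in stromal cells of both tissues and P4ha1 above 9 CPM in every class.

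Free RNA from broken cells can give UMIs in classes that do not express a gene, so leukocyte levels were set beside those of collagen transcripts. In mononuclear phagocytes, Col1a1 was at 0.143% and Dcn at 0.122% of the stromal CPM (median depths of 12249 and 16456 UMIs per cell), Lox at 0.144% and Loxl1 at 0.257%. Lox and Loxl1 were thus near background there. Plod3 was at 49.0% of its stromal level, P4ha1 at 49.1%, Plod1 at 20.1% and Loxl3 at 3.81%, all above Col1a1 and Dcn. Loxl2 at 0.980% and P4ha2 at 0.757% were above them too. Schwann, mural and mast cells also carried Loxl2 and P4ha2, and Schwann cells also carried Plod3, P4ha1, Plod1 and Loxl3. Col1a1 and Dcn thus do not set the background of any of these. In T and innate lymphoid cells Loxl2 was at 1.51% and P4ha2 at 1.59%, so their phagocyte values cannot be told apart from free RNA. Plod3 was at 8.29%, P4ha1 at 35.1%, Plod1 at 6.82% and Loxl3 at 0.250% there, each below its phagocyte value. The part of free RNA in these levels was not tested.

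The next question was which enzymes changed with bleomycin in SARAWT skin. In stromal-gated cells, 1 of the 10 enzymes was called, and it was Loxl3. Of 10032 genes tested, 137 were called (1.37%), 75 higher and 62 lower, and the median log2 fold change was 0.46 over the 10 enzymes and -0.02 over all genes. Loxl3 was 13.2, 18.7 and 8.41 CPM in SARAWT PBS 1 to 3 and 164, 77.7 and 73.5 CPM in bleomycin 1 to 3. All bleomycin libraries were above all PBS libraries, and the share of all genes with such an order was not counted. Libraries 1 and 2 and the pair numbered 3 were counted with different Cell Ranger versions. The same order within each version follows from the order over all libraries and adds no support. Loxl3 rose from 13.4 ± 5.17 to 105 ± 51.0 CPM (SD, n = 3 each), a log2 fold change of 3.14 (SE 0.42, adjusted p = 0.0331, edgeR quasi-likelihood test with Benjamini-Hochberg adjustment). The SARATg groups have 1 library each and no test, with 5.56 CPM in PBS (95% exact Poisson interval 4.52 to 6.76) and 137 CPM in bleomycin (131 to 143). Intervals cover counting error only. PBS 1 and PBS 3 are the SARAWT libraries whose human ZFYVE9 or Zfyve9 level goes most against the label. Human ZFYVE9, which is no mouse gene, was also found in PBS 2 (190.2 CPM) and in bleomycin 1 and 2 (89.3 and 115 CPM). PBS 3 and bleomycin 3 were counted without that gene. The whole control group and part of the bleomycin group thus carry that doubt. Mouse Zfyve9 had a log2 fold change of -3.59 in the stromal fit and was not called. Its part in the Loxl3 result was not tested.

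The Loxl3 call depended on the libraries and on the gate. With the replicate number as a block, the adjusted p was 0.00748 and 905 genes were called (9.02%). With cells that carry a second class kept, the call ended (log2 fold change 3.22, adjusted p = 0.0531, 0 genes called). Without SARAWT PBS 1, PBS 2, bleomycin 1 or bleomycin 3 the adjusted p was 0.0654, 0.0924, 0.122 and 0.0696, with log2 fold changes of 2.61 to 3.38. With every barcode that another skin library also lists left out, a choice made after the data were seen, 22 of 99 stromal cells remained in bleomycin 1, 56 of 128 in bleomycin 2 and 23 of 96 in PBS 2. Loxl3 was then 15.4, 0 and 8.45 CPM in PBS 1 to 3 and 69.3, 13.7 and 75.1 CPM in bleomycin 1 to 3 (log2 fold change 2.23, SE 0.59, adjusted p = 0.244). Bleomycin 2 then lay within the PBS range, and the other 2 bleomycin libraries above it.

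Loxl3 was next read in subsets of the stromal gate, an analysis added after the data were seen. Cells were assigned by markers to a Cthrc1 subset (Cthrc1, Postn, Tnc, Aspn, Lrrc15 and Acta2) or a Pi16 subset (Pi16, Dpp4, Sema3c, Anxa3 and Cd55). In Cthrc1-gated cells, Loxl3 was 3.20, 14.2 and 5.94 CPM in SARAWT PBS 1 to 3 and 177, 148 and 101 CPM in bleomycin 1 to 3. The values of PBS 1 and 2 rest on 11 and 2 UMIs. Loxl3 passed the filter on low counts here through the bleomycin libraries, so the size of its rise rests on few control counts. It rose by 4.88 on the log2 scale (SE 0.47, adjusted p = 0.00476, edgeR), from 7.77 ± 5.72 to 142 ± 38.7 CPM (SD, n = 3 each), in a fit that called 300 of 8999 genes (3.33%). In this fit 0 of 8 dissociation and stress genes had an estimate above 0 (median -1.02, 0 called), and their part in the result was not tested. Zfyve9 was at -3.77 here and was not called, with the same doubt about the SARAWT labels. Its part was not tested either. The Loxl3 call held without each library in turn (adjusted p = 0.00425 to 0.0305, edgeR). It was lost without the shared barcodes, when bleomycin 1 and PBS 2 had under 10 such cells and dropped out (log2 fold change 3.95, SE 0.67, adjusted p = 0.392). The values were then 3.47 and 5.94 CPM in PBS 1 and 3 and 31.6 and 104 CPM in bleomycin 2 and 3.

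In Pi16-gated cells Loxl3 was 28.7, 18.5 and 11.3 CPM in PBS and 31.4, 8.19 and 0 CPM in bleomycin, groups that overlap, and it did not pass the filter on low counts. The bleomycin values rest on 3, 3 and 0 UMIs in 18, 33 and 13 cells, too few to show whether Loxl3 changed in this subset. The difference between the subsets was not tested. In SARATg, Cthrc1-gated cells had 9.55 CPM with PBS and 142 CPM with bleomycin. Cthrc1-gated cells were 33.7%, 24.0% and 28.3% of stromal cells in SARAWT PBS 1 to 3, 47.5%, 25.8% and 49.4% in bleomycin 1 to 3, and 15.5% and 83.4% in SARATg PBS and bleomycin. Pi16-gated cells were 31.3% to 41.2% in SARAWT PBS, 14.6% to 25.8% in bleomycin, and 45.4% and 2.45% in SARATg. A subset call needs 2 detected markers and may depend on depth. Median UMIs per stromal cell were 6270.5 to 14046 in SARAWT PBS and 7078, 3181 and 16283 in bleomycin 1 to 3. In SARATg they were 19186 with PBS and 37947.5 with bleomycin. The part of depth in these shares, and of the shares in the stromal levels of the enzymes, was not tested.

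**Figure D2:**
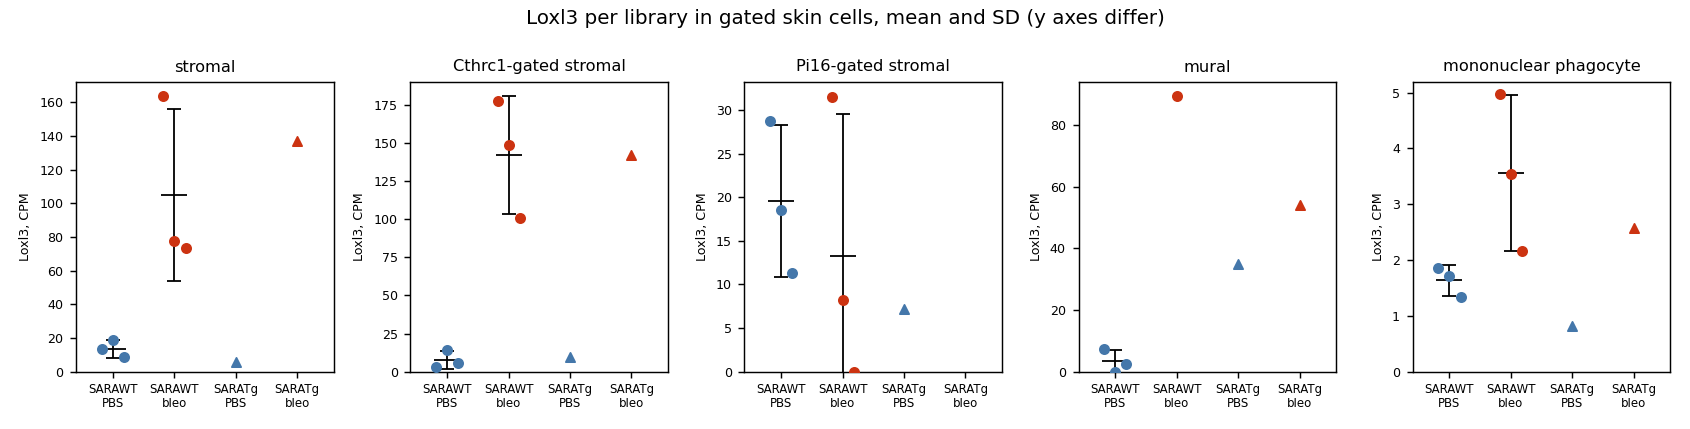
Loxl3 CPM per library (points; y axes differ) with mean and SD (bars) in gated skin cells, circles SARAWT and triangles SARATg, blue PBS and red bleomycin (bleo). In Cthrc1-gated cells SARAWT bleomycin libraries lie at 101 to 177 CPM and PBS libraries at 3.20 to 14.2 CPM. The groups overlap in Pi16-gated cells, where each SARAWT bleomycin value rests on no more than 3 UMIs.

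Among the other lysyl oxidases of stromal-gated cells, Loxl2 was 253, 238 and 212 CPM in SARAWT PBS and 338, 264 and 558 CPM in bleomycin (log2 fold change 0.74, SE 0.28, adjusted p = 0.176, edgeR). The groups did not overlap, bleomycin 3 was far above the others, and SARATg had 237 CPM with PBS and 429 CPM with bleomycin. Without shared barcodes Loxl2 was 268, 254 and 211 CPM in PBS 1 to 3 and 305, 238 and 569 CPM in bleomycin 1 to 3, where the groups overlap. Lox was 192 to 310.2 CPM in PBS and 261 to 447 CPM in bleomycin (log2 fold change 0.39, SE 0.31, adjusted p = 0.484), and in SARATg 684 and 486 CPM. Loxl1 was 211 to 332 and 163 to 295 CPM (-0.21, SE 0.28, adjusted p = 0.696). Loxl4 was 12.97 to 32.2 and 7.90 to 18.9 CPM (-0.82, SE 0.48, adjusted p = 0.352). Lox, Loxl1 and Loxl4 overlapped between the groups. Overlap is a description here, as the share of all genes without it was not counted.

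For the lysyl hydroxylases, all 3 estimates were above 0 and none was called. Plod2 was 58.0, 24.5 and 26.3 CPM in SARAWT PBS 1 to 3 and 81.5, 54.6 and 96.7 CPM in bleomycin 1 to 3. PBS 1 lay above the lowest bleomycin library. The log2 fold change was 1.08 (SE 0.34, adjusted p = 0.125, edgeR), and with the replicate block it was 1.19 with an adjusted p of 0.0359. Without shared barcodes it was 0.56 (SE 0.51, adjusted p = 0.776), with 57.6, 84.7 and 25.3 CPM in PBS 1 to 3 and 69.3, 22.8 and 98.2 CPM in bleomycin 1 to 3, so that PBS 2 lay above bleomycin 1 and 2. In SARATg, Plod2 was 4.32 CPM with PBS (3.41 to 5.40) and 98.8 CPM with bleomycin (93.6 to 104). Plod1 was 37.5 to 76.9 CPM in PBS and 101 to 109.9 CPM in bleomycin (log2 fold change 0.70, SE 0.27, adjusted p = 0.176), and Plod3 was 49.0 to 71.6 and 81.5 to 93.8 CPM (0.52, SE 0.21, adjusted p = 0.206). As a description, Plod1 and Plod3 did not overlap between the groups. Without shared barcodes Plod3 did (56.4, 56.5 and 71.7 CPM against 58.9, 65.3 and 85.0 CPM).

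The prolyl hydroxylases gave small estimates. P4ha1 was 139.8, 93.7 and 119 CPM in PBS and 139, 122 and 189 CPM in bleomycin (log2 fold change 0.36, SE 0.23, adjusted p = 0.396). P4ha2 was 55.1, 137 and 70.8 CPM in PBS and 74.5, 72.3 and 83.8 CPM in bleomycin (-0.13, SE 0.33, adjusted p = 0.853), with PBS 2 the highest. In SARATg, P4ha2 was 296 CPM with PBS and 84.3 CPM with bleomycin.

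In Cthrc1-gated cells alone, Loxl3 was the 1 enzyme called, and 6 had an unadjusted p under 0.05 (as had 1937 of 8999 genes). Overlap between the SARAWT groups is given below as a description. The share of all genes whose groups do not overlap was not counted. Lox was 152, 191 and 264 CPM in PBS 1 to 3 and 478, 303 and 285 CPM in bleomycin 1 to 3 (log2 fold change 0.83, SE 0.34, adjusted p = 0.195, edgeR). Loxl1 was 92.3, 170.2 and 196 CPM and 296, 204 and 308 CPM (0.86, SE 0.35, adjusted p = 0.192), where the estimate for the whole gate had the other sign. Plod2 was 67.2, 21.3 and 47.5 CPM and 88.1, 78.9 and 135 CPM (1.001, SE 0.35, adjusted p = 0.139). These 3 enzymes did not overlap between the groups here but did in the whole stromal gate. P4ha2 was 35.5 to 46.9 CPM in PBS and 69.4 to 80.1 CPM in bleomycin (0.91, SE 0.26, adjusted p = 0.0858), and Plod1 was 28.4 to 78.6 and 86.7 to 104 CPM (0.57, SE 0.32, adjusted p = 0.336). Loxl2 (1.02, SE 0.38, adjusted p = 0.163), Loxl4 (-1.33, SE 0.60, adjusted p = 0.241), Plod3 (0.46, SE 0.32, adjusted p = 0.440) and P4ha1 (0.37, SE 0.28, adjusted p = 0.471) overlapped. Without shared barcodes, with 2 libraries left a group, Plod2 overlapped too (67.7 and 47.5 CPM against 36.9 and 139 CPM).

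**Figure D3:**
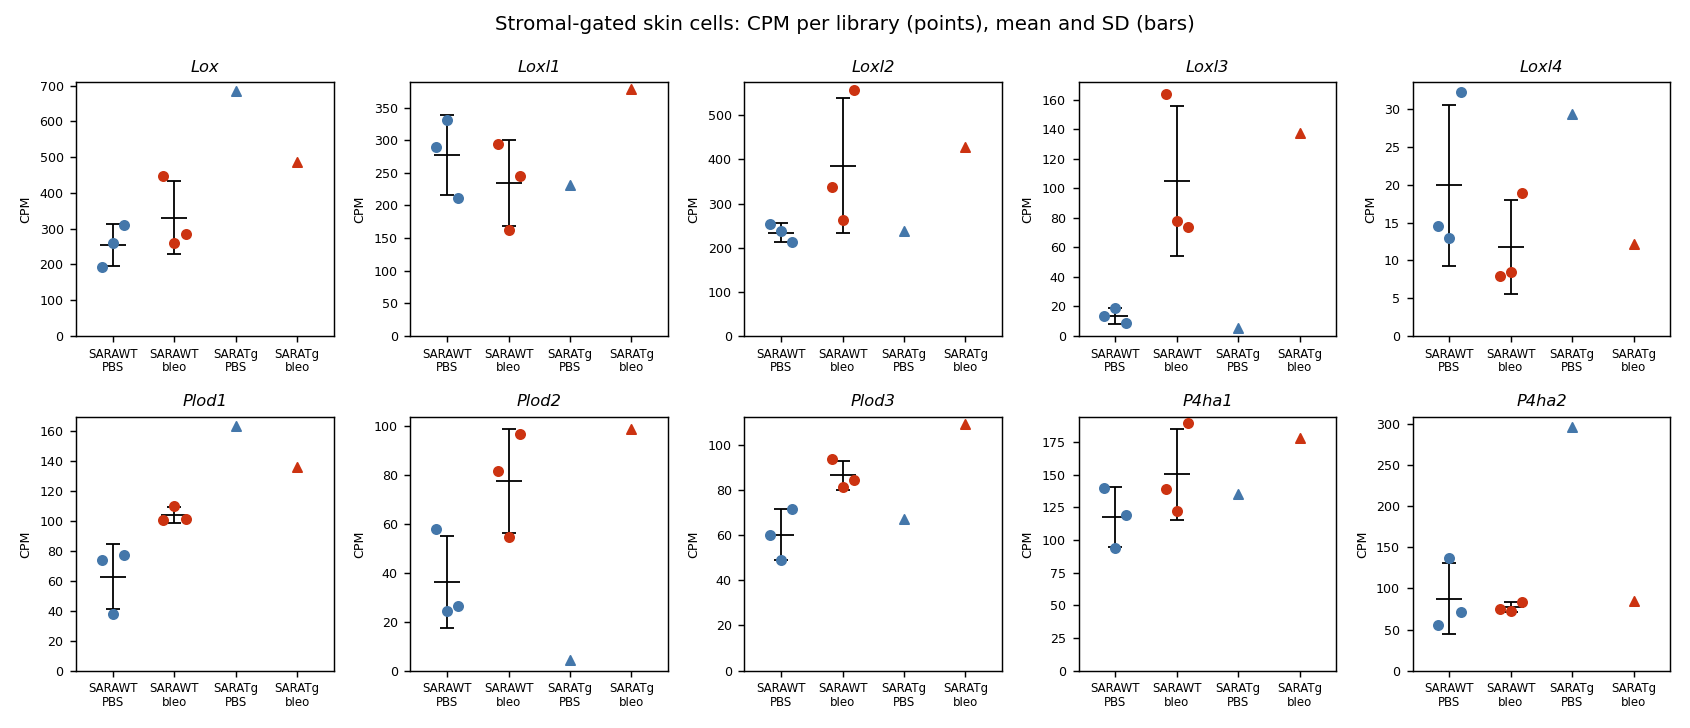
CPM of each enzyme per library in stromal-gated skin cells (points, circles SARAWT and triangles SARATg, blue PBS and red bleomycin), with mean and SD of the SARAWT groups (n = 3). For Loxl3, Loxl2, Plod1 and Plod3 all SARAWT bleomycin points lie above all SARAWT PBS points. The share of all genes with such an order was not counted.

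The partners of these enzymes were read from lists in the same stromal fit. All calls of list genes in this fit are lost without SARAWT PBS 1, PBS 2, bleomycin 1 or bleomycin 3, with second-class cells kept, or with shared barcodes left out. Without PBS 1, PBS 2 or bleomycin 1, or with second-class cells kept, 0 genes were called by edgeR (unadjusted p under 0.05 for 1356 to 2170 genes). Of 8 fibrillar collagen and elastin substrates, 8 were tested and 0 called by edgeR, 1 had an estimate above 0 and the median log2 fold change was -0.85. Col1a1, the α1 chain of type I collagen, was 16568, 19477 and 29935 CPM in SARAWT PBS and 7526, 12656 and 13028 CPM in bleomycin (-0.998, adjusted p = 0.123). Of 24 collagen processing partners, 20 were tested, 0 rose and 1 fell (median -0.36). This was Bmp1, the procollagen C-proteinase that also cleaves the Lox propeptide (log2 fold change -0.97, adjusted p = 0.0467). Of 12 hypoxia-response genes, 11 were tested and 3 rose: the glycolytic enzymes Pgk1 (2.05, adjusted p = 0.0381) and Ldha (1.81, adjusted p = 0.0381) and the mitophagy receptor Bnip3 (1.69, adjusted p = 0.0467). Ldha was 177 to 236 CPM in PBS and 524 to 1038 CPM in bleomycin. Of 18 subset markers, 15 were tested, with Crabp1, a retinoic acid binding protein, higher (4.39, adjusted p = 0.0331) and Sema3c, a secreted semaphorin, lower (-2.04, adjusted p = 0.0331). Of 8 dissociation and stress genes, 8 were tested, 0 were called and 0 had an estimate above 0 (median -0.57). In Cthrc1-gated cells P4ha3, another prolyl hydroxylase α subunit, rose by 3.41 on the log2 scale (adjusted p = 0.0222), and elastin (Eln) fell by 3.58 on the log2 scale (adjusted p = 0.0190). There Bnip3 (2.67, adjusted p = 0.0445), Pgk1 (2.12, adjusted p = 0.0169), Ldha (1.80, adjusted p = 0.0169) and the subset marker Crabp1 (4.36, adjusted p = 0.0222) rose as in the whole stromal gate. Anxa3 (2.79, adjusted p = 0.0137) rose here and was not called in the whole gate, and Wif1, a Wnt inhibitor, fell (-4.08, adjusted p = 0.0170). Crabp1, Anxa3 and Wif1 are markers of other subsets, and a cell entered the Cthrc1 subset only with fewer markers of each of those. Their levels there are thus shaped by the gate, and their calls are a description. All of these calls in Cthrc1-gated cells are lost without bleomycin 1 (adjusted p 0.0677 to 0.189, 12 genes called) and with shared barcodes left out (adjusted p 0.392 to 0.706, 0 of 9213 genes called by edgeR, 743 at an unadjusted p under 0.05).

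Schwann-gated cells were the other skin class with calls. Of 7 enzymes tested, 2 rose, in a fit that called 225 of 5924 genes (3.8%). SARAWT PBS 2 held under 10 such cells, so 3 bleomycin libraries, of which 1 and 2 also held human ZFYVE9, were compared with 2 PBS libraries (1 and 3). These PBS libraries are the 2 whose Zfyve9 or human ZFYVE9 level goes against the SARAWT label, and Zfyve9 was called lower with bleomycin in this fit (-3.77, adjusted p = 0.0306, and 0.484 without PBS 3), so no control library free of that doubt remained. Median UMIs per Schwann-gated cell were 4298 and 6818 in the PBS libraries and 13513, 15049 and 13912 in the bleomycin libraries, and 0 of 8 dissociation and stress genes had an estimate above 0 (median -0.72, 0 called). Their part in the results was not tested. Loxl2 was 63.8 and 76.3 CPM with PBS and 217, 398 and 414 CPM with bleomycin (log2 fold change 2.36, SE 0.36, adjusted p = 0.0161, edgeR), and in SARATg 16.4 and 243 CPM. P4ha2 was 31.9 and 36.7 CPM with PBS and 82.8, 154 and 112 CPM with bleomycin (1.79, SE 0.37, adjusted p = 0.0360), and in SARATg 20.5 and 93.8 CPM. Neither overlapped between the groups, and the share of all genes without overlap was not counted. Loxl1 was 0 and 5.65 CPM with PBS and 53.4, 118 and 30.6 CPM with bleomycin (4.02, SE 1.01, adjusted p = 0.0591). The PBS libraries held 0 and 2 UMIs of Loxl1, so this estimate rests on very few counts. Without PBS 3, which leaves a control at 0, the fitted value was 8.71 (SE 2.92, adjusted p = 0.166) and is no bound, and without each other library it was 3.43 to 4.37 (adjusted p = 0.0389 to 0.240, edgeR). With the replicate block, which rests on 2 pairs here, 492 genes (8.31%) and Loxl1 too were called (Loxl1 adjusted p = 6.89e-04).

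The other 4 enzymes tested in Schwann-gated cells, Plod1 (0.87, SE 0.30), Plod2 (0.43, SE 0.26), Plod3 (0.64, SE 0.30) and P4ha1 (0.89, SE 0.28), had log2 fold changes above 0 and adjusted p of 0.102 to 0.339. In the same cells, 2 of 18 partners tested rose: Fkbp10, a chaperone of collagen and of Plod2 (1.60, adjusted p = 0.0346), and Postn, a matricellular protein (1.41, adjusted p = 0.0306). Of 7 substrates tested, Col1a1 (1.48, adjusted p = 0.0389) and Col5a1 (1.02, adjusted p = 0.0485) rose. Of 6 hypoxia-response genes tested, Ldha rose (1.61, adjusted p = 0.0345) and Ndrg1 fell (-1.29, adjusted p = 0.0263), and of 8 subset markers tested, Postn and Anxa3, an annexin, rose (3.12, adjusted p = 0.0306 for Anxa3). All of these list calls are lost with the stricter gate (adjusted p 0.112 to 0.250), with shared barcodes left out (0.109 to 0.265), and without PBS 1, bleomycin 1 or bleomycin 2. The 12 stromal markers summed to 539.5 and 944 CPM in the PBS libraries and 364 to 526 CPM in the bleomycin libraries, while 7 of the 8 subset markers tested had an estimate above 0 (median 1.65). The part of stromal RNA in these results was not tested. With the stricter gate or without shared barcodes 0 enzymes were called (Loxl2 adjusted p = 0.0930 and 0.0903, log2 fold change 2.36 and 2.14), and without SARAWT PBS 1 Loxl2 was at adjusted p = 0.109. P4ha2 missed the threshold without each of the 5 libraries (adjusted p = 0.0579 to 0.186, edgeR).

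Mural cells reached 10 cells in only 1 SARAWT bleomycin library and were not tested. Loxl2 was 36.5, 46.5 and 42.0 CPM there in SARAWT PBS 1 to 3 and 446 CPM in bleomycin 3, and in SARATg 55.0 CPM with PBS and 293 CPM with bleomycin. Loxl3 was 7.30, 0 and 2.63 CPM in PBS and 89.3 CPM in bleomycin 3, and in SARATg 35.0 and 53.9 CPM. These values rest on 10 to 47 cells per library.

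In mononuclear phagocytes of the skin, 0 of 7 enzymes tested were called by edgeR and 0 by DESeq2, with 3 of 12237 genes (0.0245%) called by edgeR. Loxl3 was 1.86, 1.72 and 1.33 CPM with PBS and 4.98, 3.54 and 2.17 CPM with bleomycin (log2 fold change 1.18, SE 0.41, adjusted p = 0.359). Plod3 was 27.6 to 32.1 CPM with PBS and 37.3 to 50.3 CPM with bleomycin (0.52, SE 0.19, adjusted p = 0.377). Loxl3 and Plod3 had no overlap between the groups, which is a description, as the share of all genes without overlap was not counted. The replicate block called 182 genes here and again 0 enzymes.

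In the other skin fits 0 enzymes were called by edgeR: endothelial cells (3 enzymes tested, 0.649% of 4313 genes called), myogenic cells (6 tested, 0.225% of 4448), and, with 0% of genes called in each, keratinocytes (2 tested), neutrophils (1), T and innate lymphoid cells (4), mast cells (2), Pi16-gated cells (8) and the sum over all cells (10). Some enzymes had an unadjusted p under 0.05 in myogenic cells, in the sum and in Pi16-gated cells, and this is not read as a result. In myogenic cells the subset marker Acta2, smooth muscle actin, rose (2.83, adjusted p = 0.0388), a call lost without PBS 1 or any bleomycin library, with the block, with second-class cells kept and with shared barcodes left out (adjusted p 0.0561 to 0.286). In the sum, DESeq2 called 2 enzymes and 1322 genes (8.62%), Loxl3 at 1.76 (adjusted p = 0.0199) and Loxl4 at -1.54 (adjusted p = 0.00689), and the replicate block called 585 genes and 0 enzymes. In such sums, fewer cells of a type and less RNA per cell cannot be told apart.

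**Figure D4:**
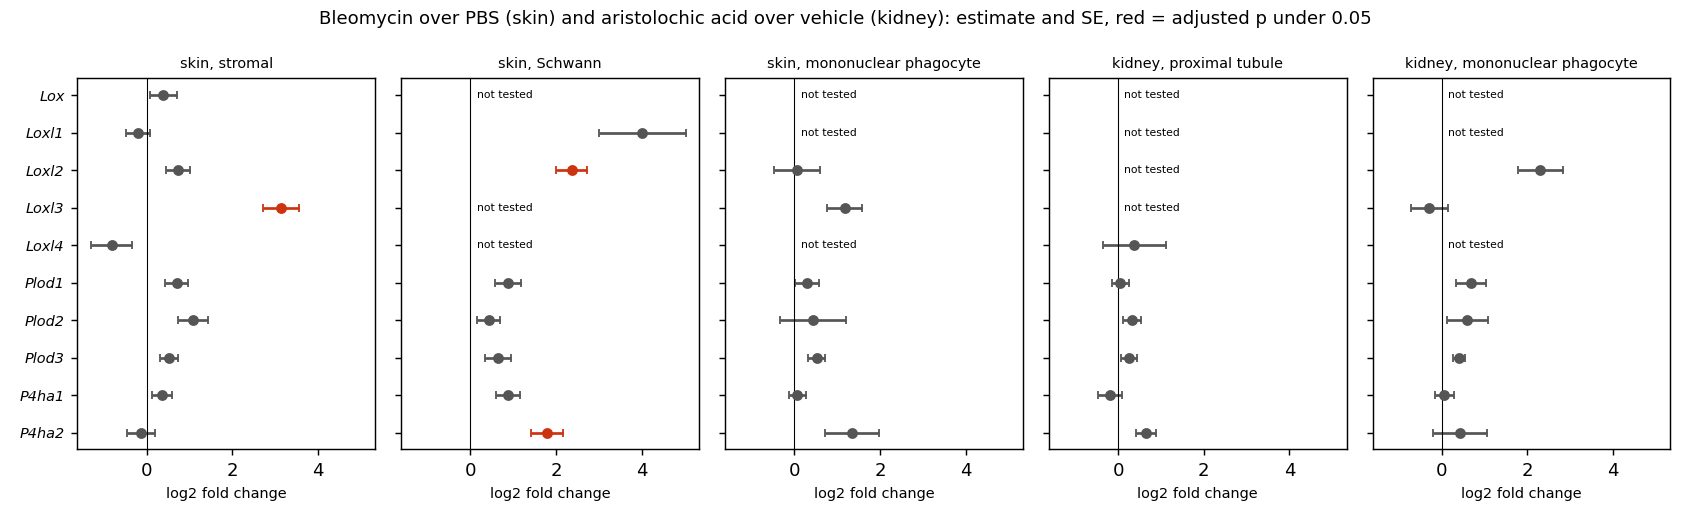
Log2 fold change with SE of each enzyme, bleomycin over PBS in 3 skin classes and aristolochic acid over vehicle in 2 kidney classes, wild-type libraries only, red where the adjusted p of the edgeR fit is under 0.05. Loxl3 in stromal cells and Loxl2 and P4ha2 in Schwann cells are in red.

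In kidney, where the stromal gate held few cells, the lysyl oxidases Lox and Loxl1 were low in most classes. Mean Lox was 0 to 1.69 CPM and mean Loxl1 0 to 1.28 CPM in classes with at least 4 libraries. In the SARATg vehicle 2 library, which held 40 stromal cells, Lox was 261 CPM (202 to 331), Loxl1 188 CPM (139 to 248), Loxl2 72.8 CPM (43.9 to 114) and Plod2 7.67 CPM (0.929 to 27.7). In the 10 stromal cells of the library labelled SARATg aristolochic acid, Lox was 51.3 CPM (16.7 to 119.7), Loxl2 164 CPM (93.8 to 267) and Plod2 144 CPM (78.5 to 241). So few cells do not carry a comparison.

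Endothelial cells led for several enzymes among the kidney classes that could be compared. Plod1 was 62.3 ± 15.5 CPM there (n = 8) and 19.1 ± 8.90 CPM in mononuclear phagocytes (n = 9), higher in 8 of 8 libraries. P4ha2 was 37.6 ± 8.84 CPM in endothelial cells and 20.1 ± 8.74 CPM in proximal tubule cells (higher in 7 of 8), and Loxl2 was 10.9 ± 11.5 and 5.09 ± 4.91 CPM in endothelial cells and mononuclear phagocytes (higher in 7 of 8). Loxl3 was 4.52 ± 2.67 CPM in mononuclear phagocytes and 0.650 ± 0.580 CPM in endothelial cells (higher in 8 of 8). Each of these 4 differences had an adjusted p of 0.0446 in the exact sign-flip test, and each missed the threshold with the stricter gate (adjusted p = 0.0781 to 0.117) and the stricter cell filter (0.0521 to 0.0893). As in skin, the classes of each test were picked as the highest and the next in these same data, so the order is a description. Plod2 was 43.6 ± 16.9 CPM in proximal tubule cells (n = 9) and 28.7 ± 19.2 CPM in principal cells (n = 6), with an adjusted p of 0.188 in the exact test. Plod3 was 57.3 ± 11.1 CPM in mononuclear phagocytes and 52.1 CPM in endothelial cells, with an adjusted p of 0.961.

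With aristolochic acid, a plant toxin that damages the proximal tubule, 0 of 6 enzymes tested in proximal tubule cells were called by edgeR, as were 0% of 12074 genes, and 0 enzymes by DESeq2. P4ha2 was 13.1, 15.1 and 21.3 CPM in wild-type vehicle 1 to 3 and 34.6, 25.9 and 29.9 CPM in aristolochic acid 1 to 3, without overlap (log2 fold change 0.66, SE 0.23, adjusted p = 0.488). Without vehicle 3 the estimate was 0.87 with an adjusted p of 0.0613. In SARATg, P4ha2 was 8.37 and 12.50 CPM with vehicle and 20.4 CPM in the library labelled aristolochic acid. Wild-type aristolochic acid 1 and SARATg aristolochic acid are the 2 libraries whose Zfyve9 level goes against the genotype label. Without the former P4ha2 was at 0.54 (adjusted p = 0.724), and the value of the latter lay within the wild-type vehicle range.

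Plod2 in proximal tubule cells was 38.1, 43.2 and 41.7 CPM with vehicle and 76.7, 46.0 and 58.3 CPM with aristolochic acid, again without overlap, and in SARATg 18.4 and 26.2 CPM against 43.7 CPM. Its log2 fold change after TMM scaling was 0.34 (SE 0.21, adjusted p = 0.508). P4ha1 was 26.3 to 56.1 CPM with vehicle and 35.2 to 45.7 CPM with aristolochic acid, which lies within the vehicle range. The share of all genes whose groups do not overlap was not counted for any kidney class.

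In mononuclear phagocytes of the kidney, 0 of 7 enzymes tested were called by edgeR (0% of 11724 genes called) and 1 by DESeq2 (0.23% of genes called). This was Loxl2, at 0.796, 2.22 and 2.44 CPM with vehicle and 8.06, 5.14 and 16.5 CPM with aristolochic acid (log2 fold change 2.30, SE 0.52, adjusted p = 0.767 by edgeR and 0.0490 by DESeq2). The SARATg libraries did not have that order, with 2.61 and 6.56 CPM for vehicle and 1.56 CPM for aristolochic acid, a value within the wild-type vehicle range. Plod3 was 47.9 to 59.7 CPM with vehicle and 65.8 to 72.8 CPM with aristolochic acid (0.40, SE 0.14, adjusted p = 0.767), without overlap, and 46.4 CPM in the library labelled SARATg aristolochic acid. Without vehicle 3, 1 enzyme was called, and it was Plod1 (log2 fold change 1.18, SE 0.26, adjusted p = 0.0498, edgeR, with 5.84% of genes called). Plod1 was 10.3, 14.8 and 24.6 CPM with vehicle and 27.9, 34.6 and 23.7 CPM with aristolochic acid (0.69, SE 0.35, adjusted p = 0.777 with vehicle 3 kept).

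The other kidney fits called 0 enzymes by edgeR: endothelial cells (5 tested), neutrophils (1), T and innate lymphoid cells (5), B cells (2) and the sum over all cells (9), each with 0% of genes called. In the sum, Loxl2 had a log2 fold change of 1.86 (SE 0.61) and was not called. No enzyme passed the filter on low counts in thick ascending limb cells or in intercalated cells (0.54% of 4818 genes called, with Ldha of the hypoxia-response list higher at 1.84, adjusted p = 0.0419). The Ldha call is lost without vehicle 1, vehicle 2 or aristolochic acid 3, with second-class cells kept, with the mitochondrial limit at 50% and with the replicate block (adjusted p 0.0645 to 0.187). Without vehicle 3 the sum called 4 enzymes, Loxl2 and Loxl3 higher and Plod2 and P4ha1 lower, and 5494 genes (33.4%). The numbers of proximal tubule and immune cells also differ between these libraries, and their part in these sums was not tested.

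**Figure D5:**
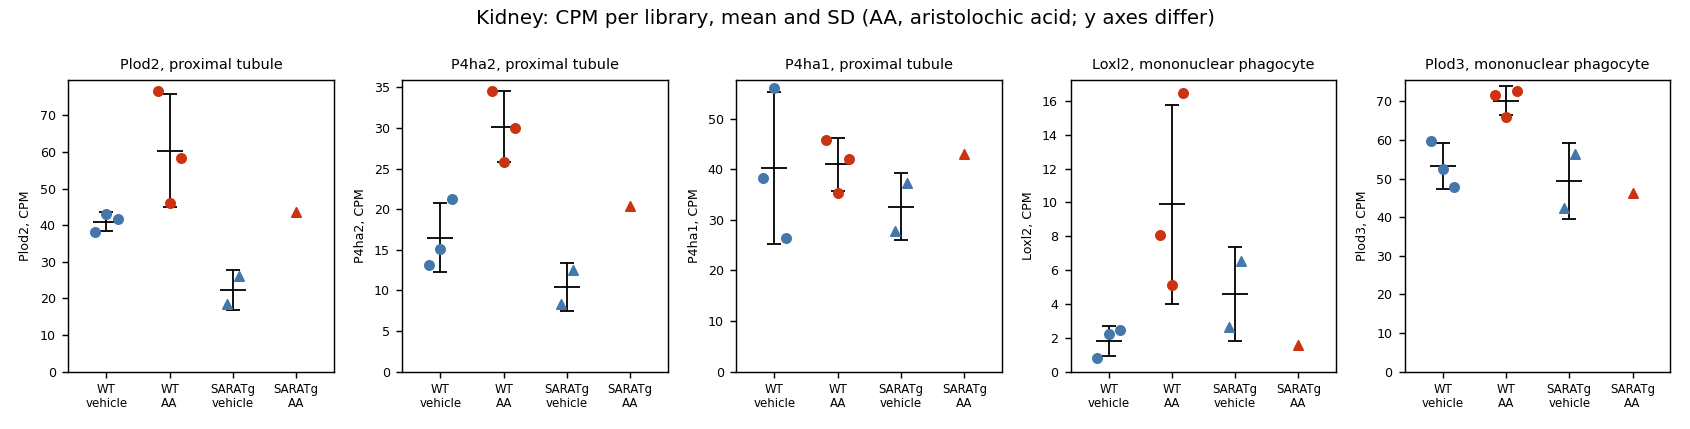
CPM per kidney library (points, circles wild type and triangles SARATg, blue vehicle and red aristolochic acid, AA) with mean and SD of groups with more than 1 library, for Plod2, P4ha2 and P4ha1 in proximal tubule cells and Loxl2 and Plod3 in mononuclear phagocytes. Groups labelled wild type do not overlap for Plod2, P4ha2, Loxl2 and Plod3 and overlap for P4ha1, while the SARATg aristolochic acid point, whose Zfyve9 level is that of wild type, is not above the highest wild-type vehicle point for P4ha2, Loxl2 and Plod3. The share of all genes whose groups do not overlap was not counted.

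The genes whose class pattern was most like that of each enzyme were found by Pearson correlation of mean log2(CPM + 1) over the 25 gated classes of both tissues, among 12024 genes that reached 20 CPM in a class. The classes share libraries and depth, so r is a description with no test. Lox was most like Serping1 (0.960) and Pdgfrl (0.959), Loxl1 like Pdgfrl (0.969) and Thbs3 (0.967), Loxl2 like Lhfp (0.930) and Fkbp7 (0.928), Loxl3 like Col6a2 (0.910) and Adamts12 (0.905), and Loxl4 like Spon2 (0.973) and Cxcl5 (0.918). For the hydroxylases these were Sorbs3 (0.855) and Fmnl2 (0.841) for Plod1, Zfp462 (0.903) and Ppic (0.870) for Plod2, Tmcc2 (0.767) and Kctd11 (0.747) for Plod3, Mex3b (0.841) and Exoc5 (0.833) for P4ha1 and Adamts1 (0.913) and 2700081O15Rik (0.862) for P4ha2. The lowest likeness of the 10 was that of Plod3.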

How the data were processed

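Single-cell 3′ libraries of sorted GFP+ cells were measured in 8 skin and 9 kidney samples. The authors deposited raw UMI counts per gene and cell barcode on mm10, without normalization (Cell Ranger 3.0.2 and Seurat 2.3.4 in the submitters' processing notes, Cell Ranger 3.0.2, 3.1.0 or 4.0.0 in the file headers). The 2 gene lists were joined by Ensembl identifier (30406 shared). Barcodes needed 200 genes and no more than 20% mitochondrial UMIs. A cell took the class with the highest mean scaled marker level if at least 3 markers were detected and the runner-up scored no more than 0.5 of it, so cells with markers of 2 classes, doublets among them, were left out. No doublet caller was run. The stricter gate needed 4 markers, the stricter cell filter 500 genes and 10%. Sums per library and class (10 or more cells) were tested with edgeR 4.0.16 in R 4.3.3 (quasi-likelihood test after filterByExpr and TMM, Benjamini-Hochberg over all genes tested, threshold 0.05), and with DESeq2 1.42.0 as an alternative. Subset cells needed 2 markers of the subset and more than of any other subset. The fits were also run on simulated counts, with no outcome given here. A pseudocount of 1 CPM was used between classes.

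Named genes are the 10 enzymes, up to 4 called genes with the largest change from each list, and the 2 genes most like each enzyme. Col1a1 in stromal cells was named after its values were seen. The enzymes and lists were chosen with earlier results of these data known. Replicate numbers were taken to pair SARAWT skin libraries, from the data, in stromal cells, where with group means removed same-number libraries were correlated at r = 0.261, 0.278 and 0.358 and the others at -0.223 to -0.0565. Removing group means pushes the other values down when same-number values are above 0, so the negative values add no support. The block was chosen on the same counts that it was then used to test. Same-number values were also above 0.1 in mononuclear phagocytes (0.245 to 0.586) and all cells (0.129 to 0.527), but other pairs of numbers there reached 0.288 and 0.213. In the other classes with 3 pairs at least 1 pair was lower, so the block is less grounded there. The skin methods text describes daily injections, the labels 3 a week. Alternatives covered tool, size factors, filters, gate, each library left out, the block, all libraries of a tissue in 1 fit and, added after the data were seen, shared barcodes and the stromal subsets.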

Additional observations from a re-analysis of the deposited data

Results flagged for a closer look

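The SARATg libraries entered no test of treatment as reported. In stromal-gated skin cells the SARATg bleomycin library had more than the SARATg PBS library, with 95% exact Poisson intervals apart, for Loxl1 (378 CPM against 232 CPM), Loxl2 (429 CPM against 237 CPM), Loxl3 (137 CPM against 5.56 CPM), Plod2 (98.8 CPM against 4.32 CPM), Plod3 (109 CPM against 67.0 CPM) and P4ha1 (178 CPM against 135 CPM). The other 4 enzymes were lower there with bleomycin, again with intervals apart: Lox (486 CPM against 684 CPM), Loxl4 (12.1 CPM against 29.4 CPM), Plod1 (136 CPM against 163 CPM) and P4ha2 (84.3 CPM against 296 CPM). In skin mononuclear phagocytes the SARATg bleomycin library had more, with intervals apart, for Loxl3 (2.57 CPM against 0.817 CPM), Plod1 (19.4 CPM against 11.7 CPM) and Plod3 (53.5 CPM against 33.3 CPM). In kidney, the library labelled SARATg aristolochic acid had more than both SARATg vehicle libraries in proximal tubule cells for Loxl4 (1.29 CPM), Plod2 (43.7 CPM), Plod3 (19.9 CPM) and P4ha2 (20.4 CPM), and in mononuclear phagocytes for Loxl3 (9.60 CPM) and Plod2 (3.95 CPM). In kidney and in skin mononuclear phagocytes only higher values were searched for. Loxl2 in kidney mononuclear phagocytes went the other way, as given above. The Zfyve9 level of this kidney library goes against its label. With 1 library a group these compare libraries, not conditions. UMIs of human ZFYVE9, which is no mouse gene, were found in 4 libraries labelled SARAWT: 28671 in PBS 1 (845 CPM), 638 in PBS 2 (190.2 CPM), 2115 in bleomycin 1 (89.3 CPM) and 2558 in bleomycin 2 (115 CPM).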

How the results depend on the processing

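In stromal cells the number of enzymes called was 1 and became 2 with no filter on low counts (4.41% of all genes called), 2 with the replicate block (Loxl3 and Plod2, 9.02%), 0 with second-class cells kept and 0 with shared barcodes left out, and 0 to 1 without 1 library. In Schwann cells it was 2 and became 0 with the stricter gate, 0 without shared barcodes and 0 to 2 without 1 library (0 without PBS 1), but 3 with DESeq2, 3 with no filter on low counts, 3 with second-class cells kept and 3 with the replicate block, each time with Loxl1 added and with 5.52%, 4.16%, 7.71% and 8.31% of all genes called against 3.8% as reported. With no filter on low counts it was 3 in keratinocytes, 2 in myogenic, 3 in Cthrc1-gated and 2 in Pi16-gated cells (0, 0, 1 and 0 with the filter), where 2.33%, 2.79%, 6.52% and 1.68% of all genes were called, and 0 in Cthrc1-gated cells without shared barcodes. DESeq2 gave 2 in the sum over skin cells and 1 in kidney mononuclear phagocytes, where edgeR gave 0. Without 1 library it was 0 to 4 in the sum over kidney cells (4 without vehicle 3) and 0 to 1 in kidney mononuclear phagocytes (Plod1 without vehicle 3). The number of genes called in stromal cells ranged from 0 to 905 and in Schwann cells from 7 to 663 over all alternatives (137 and 225 as reported). It was 0 in stromal cells without PBS 1, PBS 2 or bleomycin 1 and 16 in Schwann cells without PBS 1. The block changed no other call of an enzyme, and kidney numbers do not pair the libraries.

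For the highest against the next class, the log2 difference with the stricter gate and the stricter cell filter was 3.64 and 3.02 for Lox, 1.98 and 1.60 for Loxl1 and 2.06 and 2.05 for Loxl4 in skin, and 1.20 and 0.97 for Loxl2, 1.81 and 1.83 for Loxl3, 1.80 and 1.86 for Plod1 and 0.91 and 1.19 for P4ha2 in kidney. These kept their direction and missed the threshold, with fewer libraries only for Lox and Loxl1 under the stricter gate. There the 5 libraries left cannot give a p under 0.0625, so the loss of these 2 calls was fixed in advance. With the stricter cell filter the unadjusted p of Lox, Loxl1 and Loxl4 in skin and of Loxl3, Plod1 and P4ha2 in kidney was the same as before, as was that of kidney Plod1 with the stricter gate, and for kidney Loxl2 with the stricter gate it was lower, so there the adjustment over the 20 tests moved and not the test itself. For kidney Loxl2 with the cell filter, and for Loxl4 and kidney Loxl3 and P4ha2 with the gate, the unadjusted p rose and the cause was not tested. With the stricter gate 4 uncalled differences changed sign: Plod1 (-0.0952) and Plod2 (-0.00296) in skin, and Loxl1 (-0.32) and P4ha1 (0.0261) in kidney. Among uncalled stromal fold changes, Loxl1 ranged from -0.45 to 0.0113 and P4ha2 from -0.41 to 0.28 without 1 library, and P4ha2 was 0.0041 without shared barcodes. The 10 to 131 cells per library in Schwann and mural classes, and the 60 stromal cells of the kidney, limit what these data can show.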
